A study of Mus musculus with 6 samples.

Results

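The genes described here are 7 members of 2 chemokine systems that bring monocytes into tissue: the chemoattractant genes Ccl2, Ccl7, Ccl8 and Ccl12, the receptor gene Ccr2, and the pair of Cx3cl1 and its receptor gene Cx3cr1. They were taken by symbol from 750 endogenous genes of a NanoString nCounter panel, an assay that counts RNA molecules through barcoded probes without amplification. All 7 were on the panel, and the mean of each over the samples was above the background limit. The tissue was orthotopic liver tumor in male BALB/c mice injected at 6 to 7 weeks of age with BNL-MEA, a liver cancer cell line of that strain. Before injection the line had been stably transfected with a PD-L1 plasmid (3 samples) or an empty plasmid (3 samples), both under G418 selection. PD-L1 binds PD-1, a receptor that restrains T cells. The labels name the line, plasmid and host but give neither the number of clones nor whether each sample is a mouse of its own. P-values therefore measure the spread between these samples, which may be technical, and effects of clone and plasmid cannot be told apart. The description of the empty plasmid samples also mentions PD-L1-expressing clones, so the groups rest on titles and the treatment label. Throughout, 3 values in a row are log2 values in the order of replicates 1, 2 and 3. Cd274, the gene for PD-L1, stood at 6.17, 5.36 and 5.87 under the PD-L1 label and at 6.95, 5.32 and 7.43 under the empty plasmid label. The probe thus did not separate the groups, and they are named by their labels.

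Monocytes leave the bone marrow and enter inflamed tissue and tumors through Ccr2, a G protein-coupled receptor whose mouse ligands include Ccl2, Ccl7 and Ccl12. Ccl8 belongs to the same family of monocyte chemoattractant proteins by sequence, but in mice it has been described as a ligand of Ccr8. Cx3cl1, or fractalkine, is a membrane-anchored chemokine of endothelial and epithelial cells that can be shed, and Cx3cr1 is its receptor on patrolling monocytes, many tissue macrophages and some lymphocytes. In RefSeq's annotation of the mouse assembly GRCm38.p6 the genes Ccl2, Ccl7, Ccl11, Ccl12, Ccl8 and Ccl1 follow each other in this order on chromosome 11, with no other protein-coding gene between them.

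The sequences before the start sites of Ccl12 and Ccl8 are shown because these neighbours, as described below, had unlike profiles over the samples. Each is the 250 bases before the annotated start, from RefSeq, build GRCm38.p6, plus strand, at chr11:82101595-82101844 for Ccl12 and chr11:82114935-82115184 for Ccl8. Capitals mark TATAAA, the core of the TATA box.
Ccl12: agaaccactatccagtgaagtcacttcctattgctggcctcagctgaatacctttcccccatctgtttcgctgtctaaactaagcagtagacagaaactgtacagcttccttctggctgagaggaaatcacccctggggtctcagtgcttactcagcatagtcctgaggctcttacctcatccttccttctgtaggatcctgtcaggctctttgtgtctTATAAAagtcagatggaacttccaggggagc
Ccl8: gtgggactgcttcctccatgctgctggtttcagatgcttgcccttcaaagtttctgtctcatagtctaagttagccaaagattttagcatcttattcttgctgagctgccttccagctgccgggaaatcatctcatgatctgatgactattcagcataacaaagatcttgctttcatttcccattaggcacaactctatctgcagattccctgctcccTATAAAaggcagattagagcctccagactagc
In Ccl12 the motif lay 31 to 26 bases before the start, and in Ccl8 32 to 27 bases before it. The promoter table held 5 of the 7 genes, without Ccl2 and Ccl7, and the same letters were also in the window of Cx3cl1, where they lay at the last 6 bases before the start. On either strand TATAAA was in 13.0% of 27025 windows of this length, 1 per gene. The other 4 motifs searched on both strands were TGANTCA (AP-1), TTCNNNGAA (STAT), the NF-kappaB consensus and the interferon-stimulated response element. None of them was in the 5 windows, which says nothing about the factors themselves.

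Depth was sufficient for each of these genes. Between 1009717 and 1894819 counts of endogenous and reference genes were recovered for a sample, and each of the 7 genes held 33 to 4554 of them. The background limit was 4.66 on the log2 scale, the mean of the negative control probes plus 2 SD. Of the 42 sample values of these genes 1 lay under it. After the authors' scaling the reference genes' mean still ran from 9.77 to 10.29 between samples. All replicate pairs differed by more than counting noise (chi-square of at least 144.6 per degree of freedom). Setting the sample medians equal would add 0.16 to every difference given here, and setting the reference genes equal 0.029. The share of tested genes with the higher mean under the PD-L1 label was 40.1% as deposited and 53.2% with the medians set equal. The labels give no batch. In bulk tissue, fewer cells of a type and less RNA per cell cannot be told apart.

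The design compares tumors of the PD-L1 line with those of the empty plasmid line in their immune transcripts. All 4 chemoattractant genes of the chromosome 11 group had the higher mean in the samples labelled PD-L1, while Ccr2, Cx3cl1 and Cx3cr1 had nearly equal or lower means. Differences, given as labelled PD-L1 minus labelled empty plasmid, were 2.41 on the log2 scale for Ccl12, 2.14 for Ccl7, 1.96 for Ccl8 and 0.79 for Ccl2. For Ccr2 the difference was -0.087. None of the 7 genes passed the test over all genes, limma with Benjamini-Hochberg adjustment at 0.05, which called 0 of 541 tested genes (0%). At an unadjusted p under 0.05, 2 of the 7 genes were higher (Ccl7 and Ccl12) and 0 lower, where 17.0% of all tested genes had such a p, 7.21% higher and 9.8% lower. Leaving out labelled PD-L1 replicate 2 brought these 2 genes to 0, and leaving out labelled empty plasmid replicate 3 brought them to 1. Leaving out labelled PD-L1 replicate 3 also brought them to 1, as Ccl12 then had a limma unadjusted p of 0.0658. The median difference was 2.05 over the 4 chemoattractant genes and -0.12 over all tested genes.

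**Figure D1:**
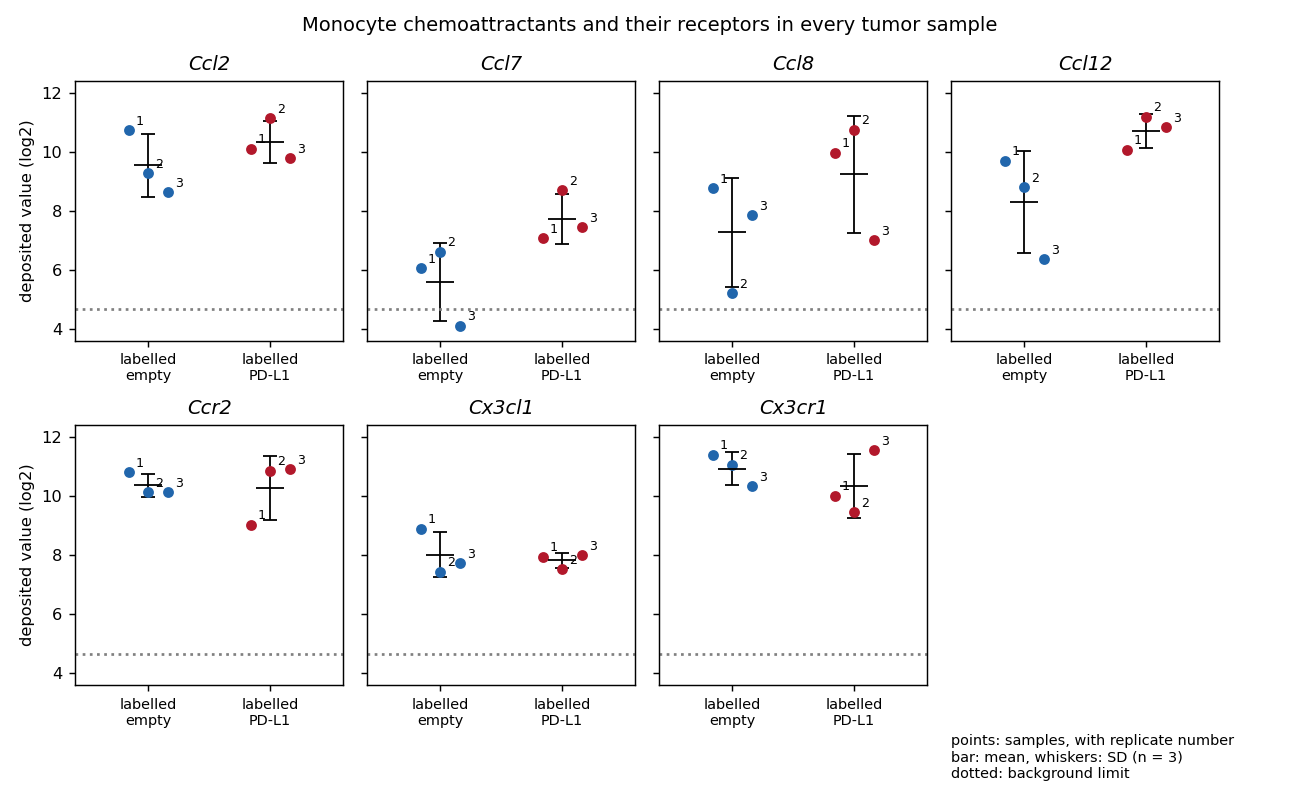
Deposited log2 values (y axis) of the 7 genes in the samples labelled empty plasmid (blue) and labelled PD-L1 (red); points are samples with their replicate number, the bar is the mean, whiskers are the SD (n = 3 each) and the dotted line is the background limit of 4.66. The groups do not overlap for Ccl7 and Ccl12 and overlap for the other 5 genes.

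Ccl12, a mouse chemokine that attracts monocytes through Ccr2, stood at 10.07, 11.19 and 10.83 (log2) under the PD-L1 label. Under the empty plasmid label it stood at 9.70, 8.79 and 6.36. Every sample labelled PD-L1 was above every other sample, the closest approach being replicate 1 of both groups. The means were 10.70 ± 0.57 and 8.28 ± 1.73 (SD, n = 3 each), a 5.32-fold difference of geometric means. The difference of 2.41 ± 0.84 (SE) had a 95% interval from 0.39 to 4.43 (limma adjusted p = 0.264; two-sided exact permutation p = 0.1, the smallest that 3 against 3 samples can give). The wide spread among the samples labelled empty plasmid came from replicate 3, without which the difference was 1.45.

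Ccl7, a chemokine for monocytes that binds Ccr2 and also Ccr1, stood at 7.07, 8.69 and 7.44 under the PD-L1 label. It stood at 6.06, 6.61 and 4.11 under the empty plasmid label, again with no overlap between the groups. The lowest of these values, from 33 counts, was the 1 value under the background limit, and its 95% Poisson interval for counting error alone was 3.58 to 4.60 on the log2 scale. The difference was 2.14 ± 0.75 (SE), 4.40-fold, with a 95% interval from 0.34 to 3.93 (limma adjusted p = 0.264; exact permutation p = 0.1). With labelled empty plasmid replicate 3 left out it was 1.40. For both Ccl7 and Ccl12, labelled PD-L1 replicate 2 was the highest sample and labelled empty plasmid replicate 3 the lowest. Groups without overlap, with the PD-L1 label higher, were seen for 2 of the 7 genes, and for 8.5% of all tested genes (18.3% in either direction).

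Ccl8 varied most of the 7 genes, over 5.55 log2 units. It stood at 9.96, 10.74 and 7.00 under the PD-L1 label and at 8.76, 5.20 and 7.86 under the empty plasmid label. The groups overlapped, because labelled PD-L1 replicate 3 lay under 2 of the 3 samples labelled empty plasmid. The difference of 1.96 ± 1.24 (SE) had a 95% interval from -1.002 to 4.93 (limma adjusted p = 0.479; exact permutation p = 0.3). It was 0.93 without labelled empty plasmid replicate 2 and 3.08 without labelled PD-L1 replicate 3.

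Ccl2, the most studied ligand of Ccr2, stood at 10.10, 11.15 and 9.78 under the PD-L1 label and at 10.73, 9.28 and 8.64 under the empty plasmid label. Labelled empty plasmid replicate 1 was the second highest of all 6 samples, and the other two of its group were the lowest. The difference of 0.79 ± 0.61 (SE) had a 95% interval from -0.67 to 2.26 (limma adjusted p = 0.557; exact permutation p = 0.4). Without labelled empty plasmid replicate 1 it was 1.38 and without labelled empty plasmid replicate 3 it was 0.34.

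The receptor gene Ccr2 stood at 9.04, 10.86 and 10.92 under the PD-L1 label and at 10.82, 10.13 and 10.13 under the empty plasmid label. Labelled PD-L1 replicate 1 was the lowest sample and the other two of its group were the highest, so the samples labelled empty plasmid lay between them. The difference of -0.087 had a 95% interval from -1.40 to 1.23 (limma adjusted p = 0.924). Its sign turned to 0.53 without labelled PD-L1 replicate 1, to 0.14 without labelled empty plasmid replicate 1, and to 0.068 when the sample medians were set equal.

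Cx3cr1 stood at 10.01, 9.46 and 11.55 under the PD-L1 label and at 11.41, 11.06 and 10.33 under the empty plasmid label. As with Ccr2, the group labelled PD-L1 held both the lowest and the highest sample, here replicates 2 and 3. The difference was -0.59 ± 0.58 (SE), with a 95% interval from -1.98 to 0.79 (limma adjusted p = 0.646). Leaving out labelled PD-L1 replicate 3 moved it to -1.19 (limma unadjusted p = 0.0285, adjusted p = 0.227), and leaving out replicate 2 of that label moved it to -0.15.

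Cx3cl1, the ligand of that receptor, had the narrowest range of the 7 genes, 1.45 log2 units. It stood at 7.94, 7.53 and 7.99 under the PD-L1 label and at 8.89, 7.44 and 7.72 under the empty plasmid label. Labelled empty plasmid replicate 1 was the highest sample, and the other 5 lay within 7.44 to 7.99. The difference of -0.20 had a 95% interval from -1.23 to 0.84 (limma adjusted p = 0.845), and without that sample it was 0.24.

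**Figure D2:**
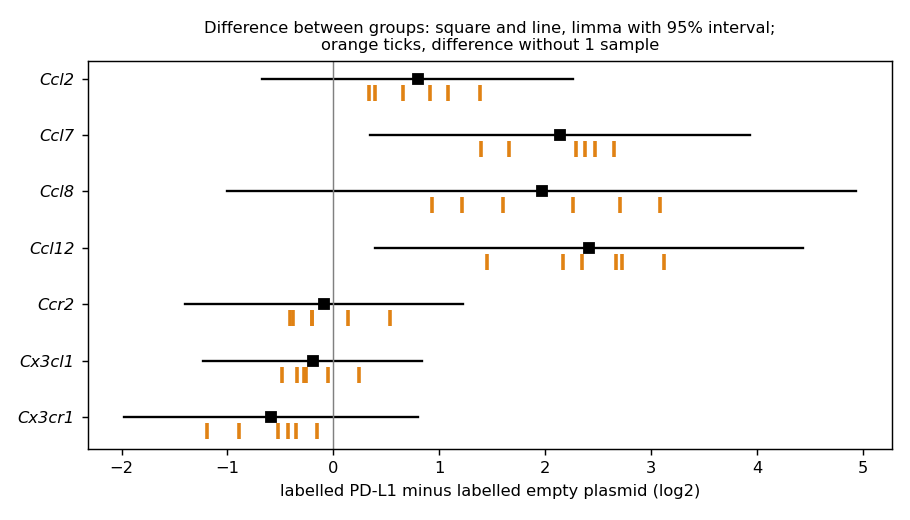
Difference between the groups for each gene (x axis, labelled PD-L1 minus labelled empty plasmid, log2); squares and lines are limma's estimate with its 95% interval (n = 3 each) and orange ticks are the 6 differences with 1 sample left out. The intervals of Ccl7 and Ccl12 lie above 0, those of the other 5 genes span 0, and the ticks of Ccr2 and Cx3cl1 fall on both sides of 0.

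The chemoattractant genes were then compared with each other within samples, which asks whether they diverged. The log2 ratio of 2 probes in a sample does not depend on the scaling between samples, and 11 ratios were compared between the groups, with exact permutation tests adjusted over the 11. The ratio of Ccl7 to Ccl12 stayed within -3.64 to -2.19 in all 6 samples and differed by -0.27 between the groups (permutation p = 0.6). That of Ccl2 to Ccl12 was 0.035, -0.043 and -1.05 under the PD-L1 label and 1.03, 0.48 and 2.28 under the empty plasmid label. These groups did not overlap, and the ratio differed by -1.62 (exact permutation p = 0.1, adjusted p = 0.367). The ratio of Ccl8 to Ccl12 spread over both groups, from -3.83 in labelled PD-L1 replicate 3 to 1.50 in labelled empty plasmid replicate 3 (permutation p = 0.9).

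Set against the receptor, the ratio of Ccr2 to Ccl12 was -1.03, -0.33 and 0.093 under the PD-L1 label and 1.12, 1.34 and 3.77 under the empty plasmid label. It differed by -2.50 with no overlap, and that of Ccr2 to Ccl7 by -2.22, also with no overlap (exact permutation p = 0.1 and adjusted p = 0.367 for both). With 20 added to the linear values the groups overlapped for Ccr2 to Ccl7 (-1.78, permutation p = 0.2), whose Ccl7 value in labelled empty plasmid replicate 3 lay under the background limit. The ratios of Ccr2 to Ccl2 and to Ccl8 overlapped between the groups (permutation p = 0.3 for both). The ratio of Cx3cl1 to Cx3cr1 differed by 0.39 (permutation p = 0.5). None of the 11 ratios could pass after adjustment, since 0.1 is the smallest p of this design.

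**Figure D3:**
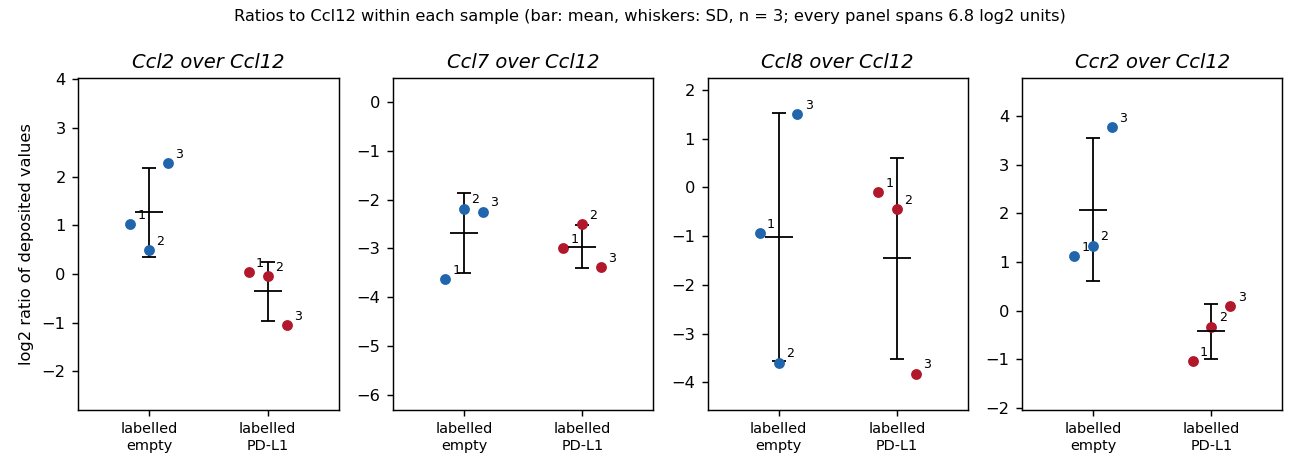
Log2 ratio within each sample (y axis) of Ccl2, Ccl7, Ccl8 and Ccr2 to Ccl12, in the samples labelled empty plasmid (blue) and labelled PD-L1 (red); points are samples with replicate numbers, bars are means and whiskers the SD (n = 3 each). The groups are apart for Ccl2 and Ccr2 and overlap for Ccl7 and Ccl8.

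Across the 6 samples Ccl7 and Ccl12 had the highest correlation of the 21 pairs of these genes, with Pearson's r = 0.94 (exact permutation p = 0.00694, adjusted over the pairs 0.146) and Spearman's rho = 0.94 (exact permutation p = 0.0167, adjusted 0.35). It was 0.66 without labelled PD-L1 replicate 2 and labelled empty plasmid replicate 3, the 2 samples farthest from the median of Ccl7, and 0.86 on values centred within each group. Ccl2 and Ccl12 followed with r = 0.82 (permutation p = 0.0389, adjusted 0.408) and rho = 0.77 (permutation p = 0.103, adjusted 0.694). That relation fell to r = 0.30 without the same 2 samples, but was 0.80 on values centred within each group. The relation of Ccl2 and Ccl7 had r = 0.75 (permutation p = 0.0847, adjusted 0.525; rho = 0.60, permutation p = 0.242, adjusted 0.694). It turned to -0.47 without those 2 samples and was 0.68 within groups, so the 2 checks differed for both pairs. Ccl8 correlated with Ccl12 at r = 0.40 (permutation p = 0.449, adjusted 0.813; rho = 0.54, permutation p = 0.297, adjusted 0.694), and at r = -0.0089 on values centred within each group. The lowest correlation was that of Ccl8 with Cx3cr1, r = -0.70 (permutation p = 0.125, adjusted 0.525; rho = -0.71, permutation p = 0.136, adjusted 0.694). It was -0.62 without the 2 samples farthest from the median of Ccl8. None of the 21 pairs passed after adjustment.

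**Figure D4:**
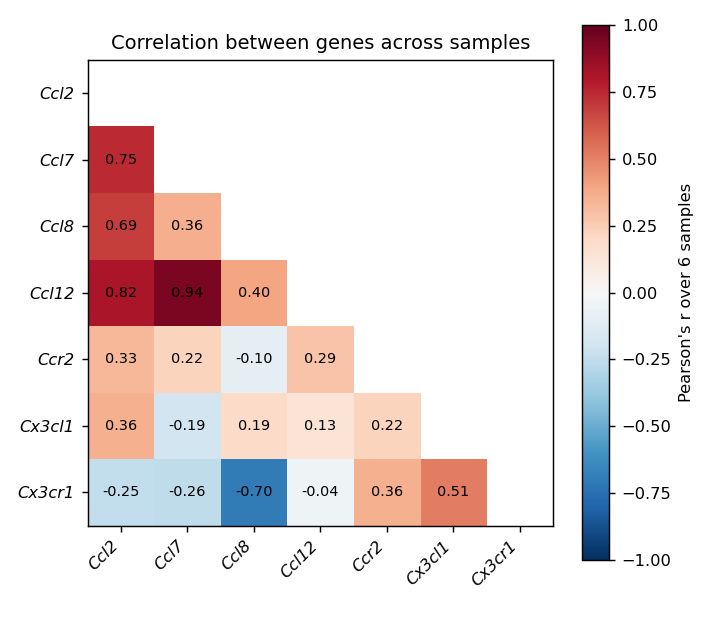
Pearson's r over the 6 samples for the 21 pairs of the 7 genes (rows and columns are genes, colour and number give r). The pairs among Ccl2, Ccl7 and Ccl12 lie between 0.75 and 0.94, of which that of Ccl2 and Ccl7 turns to -0.47 without 2 samples, and the pair of Ccl8 and Cx3cr1 is lowest at -0.70.

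The genes with the most similar profiles were found by the root mean square distance over the 6 samples between log2 values centred on each gene's mean, among 534 other tested genes. Ccr1, a receptor for several CC chemokines, was nearest to both Ccl7 (distance 0.66) and Ccl12 (0.89). Ccl7 and Ccl12 lay 0.56 apart from each other. Fpr2, a formyl peptide receptor of phagocytes, and Lyz2, the lysozyme of macrophages and neutrophils, followed for Ccl7 at 0.82 and 0.83. For Ccl12 it was Clec4n, the lectin dectin-2 of myeloid cells, at 0.98 and Lyz2 at 1.01. For Ccl2 the nearest were Rrad, a small GTPase gene, at 0.42, Thy1 at 0.52 and Myd88, the Toll and IL-1 receptor adaptor, at 0.54. Ccl8 had no near neighbour, the closest being Amica1, Ncam1 and Abcg1 at 1.10 to 1.14. The receptor Ccr2 lay 0.19 from Il1rl1, the IL-33 receptor gene, 0.21 from Ctsw and 0.28 from H2-DMb2. For Cx3cr1 they were Sh2d1b1 at 0.27 and the interferon-induced genes Ifi44l at 0.29 and Usp18 at 0.37. Cx3cl1 lay 0.28 from each of H2-Dma, Il21r and Lif. A gene that varies little has small distances to others of that kind, so the distances of different genes are not on an equal footing.

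Cell type markers were read beside these values, as the mean log2 value over the tested genes of each list. Of 16 monocyte and macrophage markers all 16 were above background and 13 had the higher mean in the samples labelled PD-L1 (median difference 0.42). Marco, among those higher, had a mean of 4.92 under the PD-L1 label and 4.45 under the empty plasmid label. It passed the limit of 4.66 only through the former, so the limit favoured this direction for Marco. The list's mean was 10.44 to 11.26 in the samples labelled PD-L1 and 9.93 to 10.52 in the others. With this mean as a covariate Ccl12 differed by 2.87 ± 1.38 (SE), Ccl7 by 2.30 ± 1.25, Ccl8 by 0.79 ± 1.95 and Ccr2 by -1.05 ± 0.73. Ccl2 differed by 0.63, Cx3cl1 by -0.016 and Cx3cr1 by -0.046. None of the 7 genes had an unadjusted p under 0.05 in this fit (limma). Of 13 T cell markers 10 lay under the background limit, as did 6 of 9 neutrophil, 9 of 13 natural killer cell, 6 of 7 dendritic cell and 7 of 9 B cell markers. The means over the tested markers of these lists overlapped between the groups. All 3 tested T cell markers had the lower mean under the PD-L1 label (median difference -1.05). Cd3d and Lck, named after their values were seen, did so without overlap, where 9.8% of all tested genes did. Cd3g, the other marker, had a mean of 4.51 under the PD-L1 label and 6.04 under the empty plasmid label. It passed the limit of 4.66, set on the mean of all samples, only through the latter. The limit thus favoured this direction for Cd3g. The 10 endothelial markers, of a cell type that makes Cx3cl1, had a mean of 7.80 to 8.25 in the samples labelled PD-L1 and 8.13 to 8.94 in the others. Of these markers 9 of the 10 were lower (median difference -0.54). Their part in the level of Cx3cl1 was not tested. The 7 fibroblast markers had a mean of 10.04 to 10.55 in the samples labelled PD-L1 and 9.33 to 10.71 in the others.

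Ccl8 ran opposite to liver genes across the samples. The mean of 18 hepatocyte genes was 6.12, 5.30 and 9.11 under the PD-L1 label and 8.07, 11.91 and 10.19 under the empty plasmid label, and all 18 had the lower mean in the samples labelled PD-L1. Ccl8 was highest in the sample with the lowest hepatocyte mean and lowest in the sample with the highest. A look at the 7 genes against the hepatocyte and the macrophage list, 14 relations chosen after the values were seen, gave r = -0.96 for Ccl8 with the hepatocyte mean (exact permutation p = 0.00556, adjusted 0.0778; rho = -0.94, permutation p = 0.0167, adjusted 0.233). It was -0.86 without the 2 samples farthest from the median and -0.97 on values centred within each group, so it was as strong among samples of the same label. Ccl2 had r = -0.80 (permutation p = 0.0611, adjusted 0.428; rho = -0.89, permutation p = 0.0333, adjusted 0.233), -0.68 without those 2 samples and -0.74 within groups. For Ccl7 r was -0.59 (permutation p = 0.213, adjusted 0.492; rho = -0.60, permutation p = 0.242, adjusted 0.553) and for Ccl12 it was -0.63 (permutation p = 0.176, adjusted 0.492; rho = -0.77, permutation p = 0.103, adjusted 0.480). Within groups these came to -0.11 and -0.21. None of the 14 relations passed after adjustment.

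**Figure D5:**
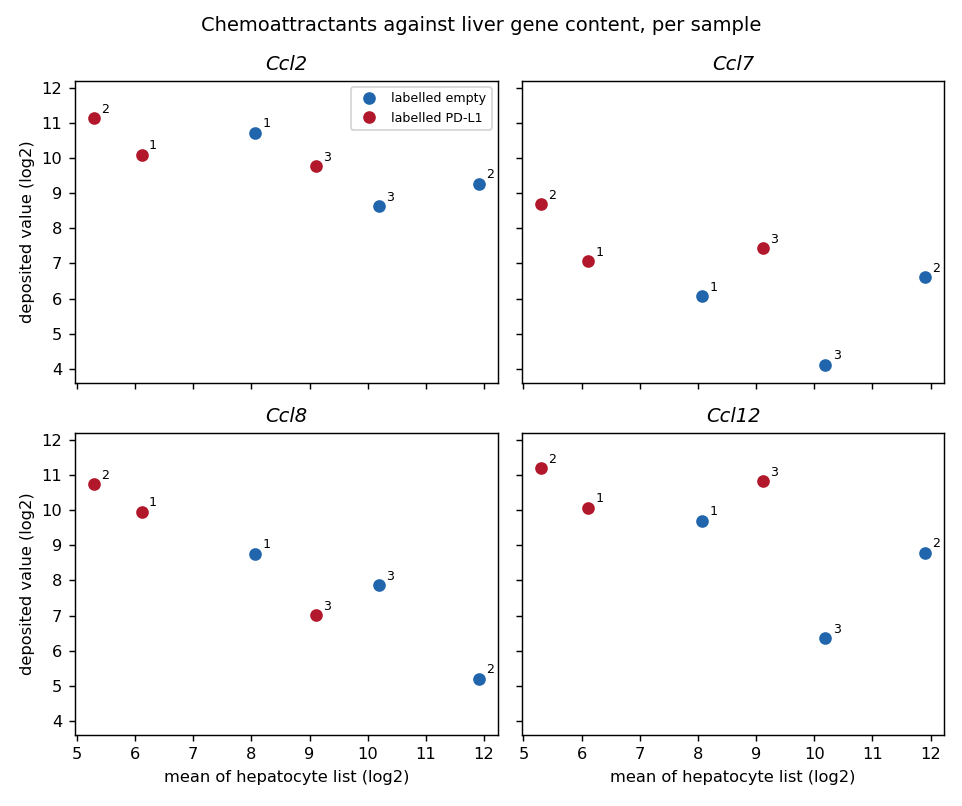
Deposited log2 value of the 4 chemoattractant genes (y axis) against the mean of 18 hepatocyte genes (x axis, log2), 1 point per sample with its replicate number, labelled empty plasmid in blue and labelled PD-L1 in red. Ccl8 goes from 10.74 to 5.20 as the hepatocyte mean goes from 5.30 to 11.91, while for Ccl12 and Ccl7 the samples labelled PD-L1 lie above the others.

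With the hepatocyte mean as a covariate the differences of the 4 chemoattractant genes changed unequally. Ccl7 differed by 1.95 ± 1.07 (SE) and Ccl12 by 1.97 ± 1.16, close to the values without it (limma adjusted p = 0.762 and 0.782, against 0.264 without the covariate). Ccl8 turned to -1.08 ± 0.55 (limma adjusted p = 0.758) and Ccl2 to -0.31 ± 0.64 (limma adjusted p = 0.939). These 2 genes had the strongest correlations with that mean in the same samples. The mean itself was 6.84 under the PD-L1 label and 10.06 under the empty plasmid label, so the fit separates list and label poorly. Whether the 4 genes differ in this respect was not tested. Cx3cr1 turned to 0.15, Cx3cl1 was at -0.63 and Ccr2 at -0.066.

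Among other genes of the pathway, Ccl11, the eosinophil chemoattractant eotaxin and the gene between Ccl7 and Ccl12, stood at 7.66, 5.60 and 6.19 under the PD-L1 label. Under the empty plasmid label it stood at 4.62, 4.41 and 5.23, of which the first and second lay under the background limit. Its groups did not overlap, as for its neighbours on both sides, where 8.5% of all tested genes were higher without overlap. It differed by 1.73 ± 0.58 (SE, limma adjusted p = 0.256). Ccl1, at the end of the row, lay under the limit in 4 of 6 samples and was not tested. Probe sequences are not used here, so whether a probe of one of these related genes reads another was not tested.

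Of 15 other CC chemokine genes 6 were tested, of which 4 were higher and 2 lower (median difference 0.79), and 0 passed. Ccl6, a myeloid chemokine of rodents, was at 9.25, 10.87 and 8.82 under the PD-L1 label and at 6.16, 6.03 and 7.34 under the empty plasmid label. Ccl5, a T cell and monocyte attractant, went the other way, with 5.17, 4.90 and 5.14 against 7.68, 5.79 and 7.10, and its groups did not overlap either. Both were named for the smallest p of their list, and 18.3% of all tested genes had no overlap in either direction. Of 9 other CC receptor genes 3 were tested and 0 passed. Ccr1 was at 9.53, 10.86 and 10.38 under the PD-L1 label and at 8.80, 8.73 and 8.18 under the empty plasmid label, a difference of 1.69 ± 0.39 (SE; limma adjusted p = 0.251). Ccr1 had the smallest p of this list and was named for it. Its groups did not overlap, where 8.5% of all tested genes were higher without overlap. Ccr2 overlapped, and Ccrl2, an atypical receptor, ranged from 4.91 to 8.44 with overlap. Ccr8, named after its values were seen, lay under the background limit in all 6 samples, at 3.25 to 3.97.

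Of 18 genes of the pathways that induce Ccl2, 14 were tested, 3 were higher and 11 lower (median difference -0.19), and 0 passed. The list also holds Nfkbia, the gene of an NF-kappaB inhibitor, which was among those higher (0.075). The cytokine genes Tnf, Il1a, Il6 and Ifng were left out by the background limit. Jun, a subunit of AP-1, was at 8.95, 9.23 and 9.08 under the PD-L1 label and at 9.93, 9.70 and 10.02 under the empty plasmid label (limma adjusted p = 0.251). Il6st, the signalling chain of the IL-6 receptor family, was lower by the same pattern, at 8.95 to 9.05 against 9.59 to 9.97. With Jun and Il6st, 4 of the 14 genes were lower without overlap, where 9.8% of all tested genes were. The mean of the 14 tested genes of this list was 9.16 to 9.42 under the PD-L1 label and 9.48 to 9.74 under the empty plasmid label. This difference of -0.32 was -0.16 with sample medians set equal. The list was drawn up for Ccl2, and its part in the level of the chemoattractant genes was not tested.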

How the data were processed

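Per the labels' protocols, RNA extracted from tumor tissue was counted with NanoString nCounter probes and no dye. The authors deposited log2 values. From the values, 2 to the power of each equals a whole number times a factor per sample (0.519 to 1.11) plus 0.158, within a tolerance of 0.02 for all 784 probes, so counts could be recovered; the basis of the factors and the software are not given in the sources used here. A second deposited table held identical log2 values for 770 genes. Genes with a mean at or above the background limit (541 of 750) were compared on the deposited values with limma 3.58.1 in R 4.3.3 (lmFit, eBayes with trend, group as the term, Benjamini-Hochberg over all tested genes), after the fit was tested on simulated data. Exact permutation tests between the groups and ranks used scipy 1.17.1. Correlations and their permutation p-values, over all orders of the samples, used numpy 2.4.6. Alternatives covered scaling, trend, background limit, added constant, background subtraction, the second table, a replicate block, 2 covariates, voom on recovered counts and leaving out each sample. Named were all 7 genes, the 3 nearest tested genes of each, the 2 genes with the smallest p of each pathway list, and Cd274. The members and lists were chosen with earlier results of these data known. All 7 deposited accessions matched RefSeq under the same symbol.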

Additional observations from a re-analysis of the deposited data

How the results depend on the processing

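Over 18 other settings 119 of 126 values of the 7 genes kept their sign, and none passed after adjustment (smallest adjusted p = 0.185, Ccl12 without labelled empty plasmid replicate 1). A difference cannot change without the trend, with another background limit, with the second table or with the replicate block. The signs under those settings were thus fixed in advance and count for nothing. With the hepatocyte covariate Ccl2 turned to -0.31, Ccl8 to -1.08 and Cx3cr1 to 0.15, and with sample medians set equal Ccr2 turned to 0.068; the cause was not tested. Without 1 sample the differences ran from 0.34 to 1.38 for Ccl2, 1.40 to 2.64 for Ccl7, 0.93 to 3.08 for Ccl8, 1.45 to 3.12 for Ccl12, -0.41 to 0.53 for Ccr2, -0.48 to 0.24 for Cx3cl1 and -1.19 to -0.15 for Cx3cr1. The count of genes with an unadjusted p under 0.05, 2 as reported, became 0 with either covariate. Without 1 sample it was 0 to 3 (0 without labelled PD-L1 replicate 2, 1 without labelled empty plasmid replicate 3), and the genes changed. Without labelled PD-L1 replicate 3, Ccl8 (limma unadjusted p = 0.0308) and Cx3cr1 (0.0285) joined Ccl7, while Ccl12 dropped out (0.0658). Without labelled empty plasmid replicate 1, Ccl2 joined Ccl7 and Ccl12 (limma unadjusted p = 0.0303). With reference genes set equal 1 of 541 genes passed, none of these 7. The ratio of Ccl7 to Ccl8, 0.17 between groups, turned to -0.084 with 20 added to the linear values and ran from -0.86 to 1.72 without 1 sample, and that of Ccl8 to Ccl12 from -1.74 to 0.81. Deviations of same-numbered samples correlated at 0.27, -0.20 and -0.13, and those of other-numbered samples at -0.39 to 0.46. These values show no pairing by replicate number but cannot settle whether there was one. The replicate block left the differences as they were, 2.41 for Ccl12 (adjusted p = 0.294) and 2.14 for Ccl7 (adjusted p = 0.292), with 2 genes still at an unadjusted p under 0.05. The lowest counts, 33 of Ccl7 and 33 of Ccl8 in 1 sample each, leave a counting error smaller than the spread between samples, so the number of samples limits the precision.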
